A study of Rattus norvegicus with 12 samples.

Results

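The genes described here carry water and urea through the kidney tubule, together with the receptor that controls them: the aquaporins Aqp1, Aqp2, Aqp3, Aqp4, Aqp6, Aqp7 and Aqp11, the vasopressin receptor gene Avpr2 and the urea transporter gene Slc14a2. They were taken as the array rows annotated with exactly 1 of these symbols, which gave 9 rows for 9 genes, out of 18511 rows with a single symbol and 18166 genes tested. All 9 had a value on every array. RNA came from whole kidney tissue of rats after ischemia-reperfusion injury, in which the kidney's blood supply is stopped and then restored. The 4 groups of 3 animals were anti-miR-182 at day 7, placebo at day 7, anti-miR-182 at day 2 and placebo at day 2. Anti-miR-182 is an inhibitor of the microRNA miR-182, and every group had been injured, so the comparisons hold injury in common. No strain, sex, age, dose or placebo substance is stated in the labels.

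Water leaves the filtrate first through Aqp1, a constantly open channel of the proximal tubule, the thin descending limb and the descending vasa recta. In the collecting duct, vasopressin binds the receptor encoded by Avpr2 on principal cells, cyclic AMP rises, and vesicles bring the Aqp2 channel to the urinary surface; water then leaves the cell through Aqp3 and Aqp4 on the blood side. Slc14a2 encodes the UT-A urea transporters of the inner medullary collecting duct and thin descending limb. Aqp6 sits in vesicles of acid-secreting intercalated cells, Aqp7 carries water and glycerol in the proximal straight tubule, and Aqp11 lies inside proximal tubule cells, where its loss causes kidney cysts in mice.

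The microRNA that the inhibitor is directed against is shown because it defines the treatment. Its mature sequence in the RefSeq table of the GRCr8 build lies at chr4:59752249-59752273 on the minus strand, and the capitals mark the seed, bases 2 to 8.
rno-miR-182: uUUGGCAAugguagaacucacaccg

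Signals are log2 values, so a difference of 1 is a doubling. Levels of different genes are not set against each other, because each row has its own probes. The median signal of an array lay between 5.84 and 5.93 at day 7 and between 5.98 and 6.10 at day 2. The kidney markers Umod, a glycoprotein of the thick ascending limb, and Slc34a1, a proximal phosphate transporter, were bright on all 12 arrays, with lowest signals of 11.19 and 9.28. A gene passed a comparison when its p from limma, adjusted over all genes by Benjamini-Hochberg, was under 0.05.

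At day 7 the collecting duct genes of the set lay lower in kidneys given anti-miR-182 than in placebo kidneys, in group means, and none passed. Aqp4, Slc14a2, Avpr2 and Aqp3 were the 4 of 9 members with an unadjusted p under 0.05, all in the lower direction, where 1.66% of all genes met the same threshold in that direction. Over all genes limma called 0 of 18166 (0% called), with 593 at an unadjusted p under 0.05 in either direction, and the smallest adjusted p of any gene was 0.999. The 9 members had a median log2 difference of -0.35, against -0.00078 for all genes. The count of 4 rested on single arrays: it was 0 without placebo replicate 2 and 1 (Aqp4) without placebo replicate 1 or treated replicate 1 or 3 of day 7, and 5 without placebo replicate 3. In bulk tissue, fewer cells of a type and less RNA per cell cannot be told apart.

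Aqp4, a water exit channel on the blood side of principal cells, had log2 signals of 7.16, 7.09 and 7.64 under anti-miR-182 at day 7, against 8.14, 8.83 and 7.51 under placebo. Placebo replicates 1 and 2 were above all 3 treated animals, while placebo replicate 3 was below the highest of them, so the groups overlapped. Treated kidneys averaged 7.30 ± 0.30 and placebo kidneys 8.16 ± 0.66 (SD, n = 3 each). The difference was -0.86 ± 0.31 (SE), a fold of 0.549, with a 95% interval of -1.53 to -0.20 and an adjusted p of 0.999 in limma. Without placebo replicate 2 it was -0.53.

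Slc14a2, the urea transporter gene, showed the same split of the placebo animals. Its log2 signals were 5.89, 6.17 and 5.90 under anti-miR-182 at day 7, against 7.20, 7.10 and 5.68 under placebo. Placebo replicate 3 was the lowest of all 6 arrays and the other placebo animals were the highest. The difference of means was -0.68 ± 0.29 (SE), with a 95% interval of -1.30 to -0.047 and an adjusted p of 0.999 in limma. Without placebo replicate 3 it was -1.17 and passed (adjusted p = 0.0197 in limma), and without placebo replicate 1 or 2 it was -0.41 or -0.45.

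Avpr2, the vasopressin receptor gene, had signals of 6.66, 7.10 and 6.53 under anti-miR-182 at day 7, against 7.41, 7.37 and 6.89 under placebo. Only treated replicate 2 reached into the placebo range. Treated kidneys averaged 6.76 ± 0.30 and placebo kidneys 7.22 ± 0.29 (SD, n = 3 each), a difference of -0.46 ± 0.21 (SE) with a 95% interval of -0.90 to -0.018. Aqp3, the other exit channel on the blood side, had 6.73, 7.17 and 6.73 under anti-miR-182, against 7.82, 7.25 and 6.90 under placebo. Its difference was -0.45 ± 0.20 (SE), and treated replicate 2 again stood above placebo replicate 3. Without placebo replicate 1 the Aqp3 difference was -0.20. The adjusted p was 0.999 in limma for both genes.

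Aqp2, the channel that vasopressin moves to the urinary surface, did not reach an unadjusted p of 0.05. Its signals were 7.30, 7.53 and 7.43 under anti-miR-182 at day 7, against 8.03, 7.82 and 7.46 under placebo. Placebo replicate 3 lay among the treated animals and the other placebo animals above them. The difference was -0.35 ± 0.21 (SE), with a 95% interval of -0.80 to 0.11, and -0.22 without placebo replicate 1. The day 7 arrays thus had the same animals high in 5 collecting duct genes, placebo replicates 1 and 2, as the plot of the 9 genes by array shows.

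**Figure D1:**
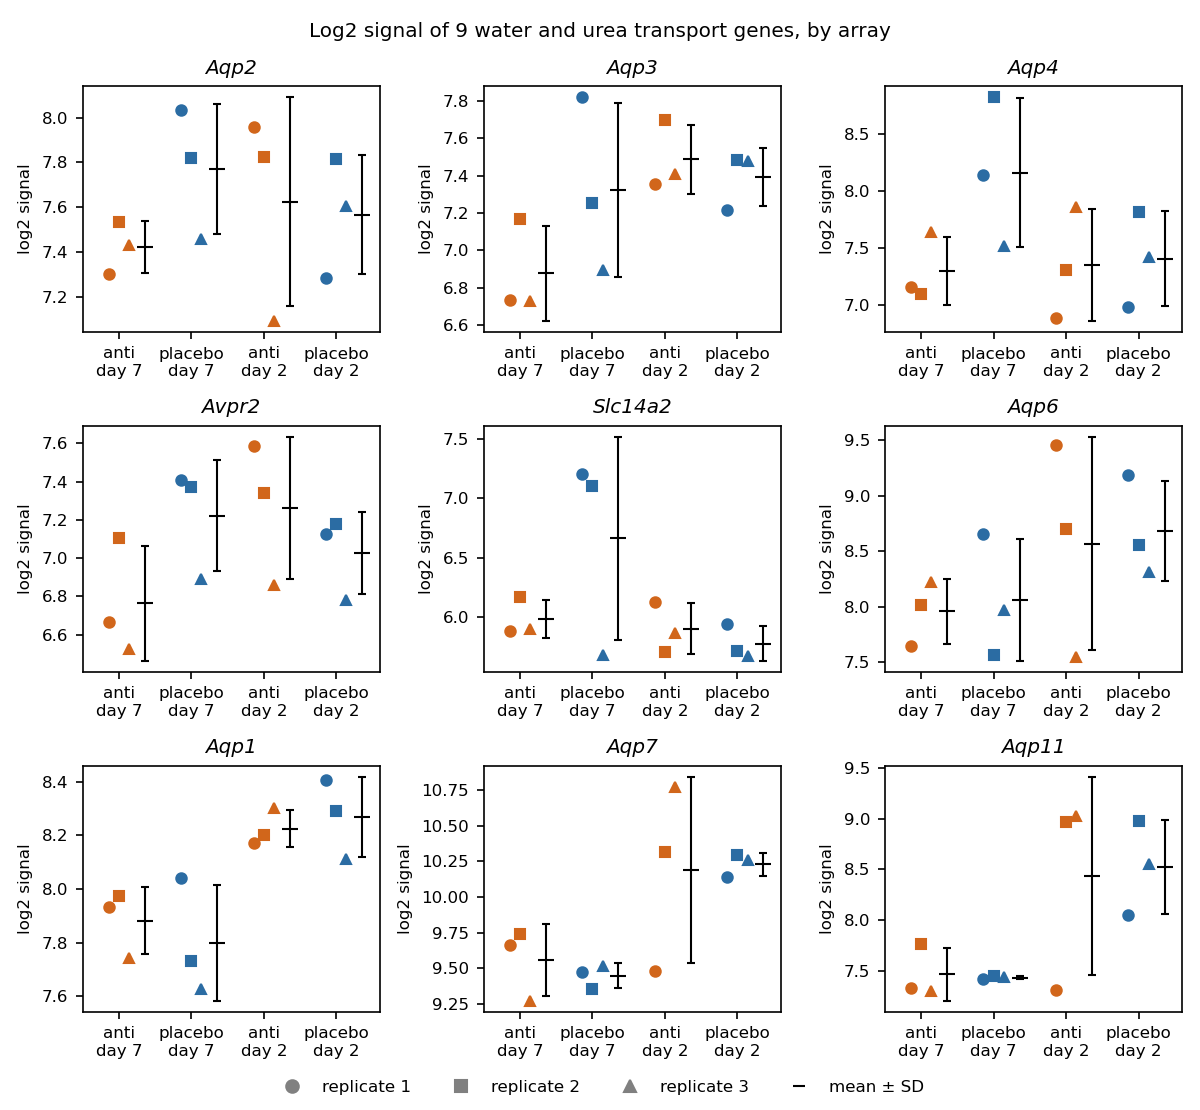
Log2 signal (y axis) of each gene in the 3 arrays of each group (x axis), orange for anti-miR-182 and blue for placebo, with marker shape for the replicate and a bar for mean ± SD (n = 3). Slc14a2 stands at 7.20 and 7.10 in placebo replicates 1 and 2 at day 7 and at 6.17 or less on the other 10 arrays, while Aqp11 in placebo at day 7 spans only 7.42 to 7.45.

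The members outside this group of collecting duct genes differed less at day 7. Aqp6 of the intercalated cells had 7.64, 8.01 and 8.22 under anti-miR-182, against 8.65, 7.57 and 7.97 under placebo, and the ranges lay within each other (difference -0.10 ± 0.39, SE). Of the proximal genes, Aqp1 differed by 0.083 ± 0.13, Aqp7 by 0.11 ± 0.24 and Aqp11 by 0.033 ± 0.35 (SE). Their 95% intervals ran from -0.19 to 0.36, from -0.40 to 0.62 and from -0.73 to 0.79, so a change of 1 log2 unit lay outside all 3. In none of the 9 genes did the treated and placebo arrays of day 7 separate completely, which 7.26% of all genes did.

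**Figure D2:**
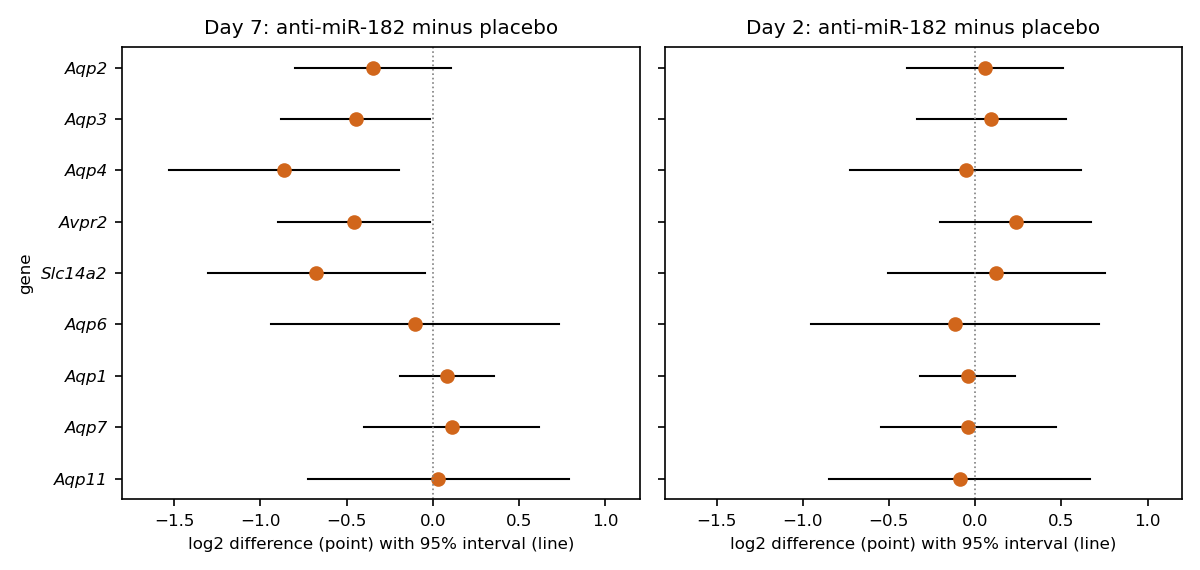
Log2 difference, anti-miR-182 minus placebo (x axis), for each gene (y axis) at day 7 on the left and day 2 on the right, with the 95% interval of the limma fit. At day 7 the intervals of Aqp4, Slc14a2, Avpr2 and Aqp3 lie below 0, and at day 2 every interval spans 0.

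Markers of the urothelium, the lining of the renal pelvis that borders the papilla, moved with the collecting duct genes at day 7. The urothelial keratin Krt15 had 5.27, 5.30 and 5.04 under anti-miR-182, against 7.03, 6.95 and 5.38 under placebo. The uroplakin Upk1b had 5.41, 5.47 and 5.58 under anti-miR-182, against 7.17, 7.33 and 5.06 under placebo. The mean log2 signal of the 9 measured urothelium markers, of 10 listed, ran from 5.42 to 5.53 under anti-miR-182, against 6.12, 6.10 and 5.57 in placebo replicates 1, 2 and 3. Log2 signals have no zero, so no marker can be called absent, and the uroplakin Upk3a did not share the pattern (6.42, 6.33 and 6.32 under anti-miR-182, against 6.35, 6.16 and 6.03 under placebo). With both of these placebo arrays left out, which leaves 1 placebo array whose spread is assumed to be that of the other groups, the day 7 differences were -0.22 for Aqp4, 0.31 for Slc14a2, -0.13 for Avpr2, -0.020 for Aqp3 and -0.035 for Aqp2. That alternative was chosen after the data were seen, and since it removes the highest arrays in these same genes, smaller differences follow from the choice itself and bear on no link to the markers.

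**Figure D3:**
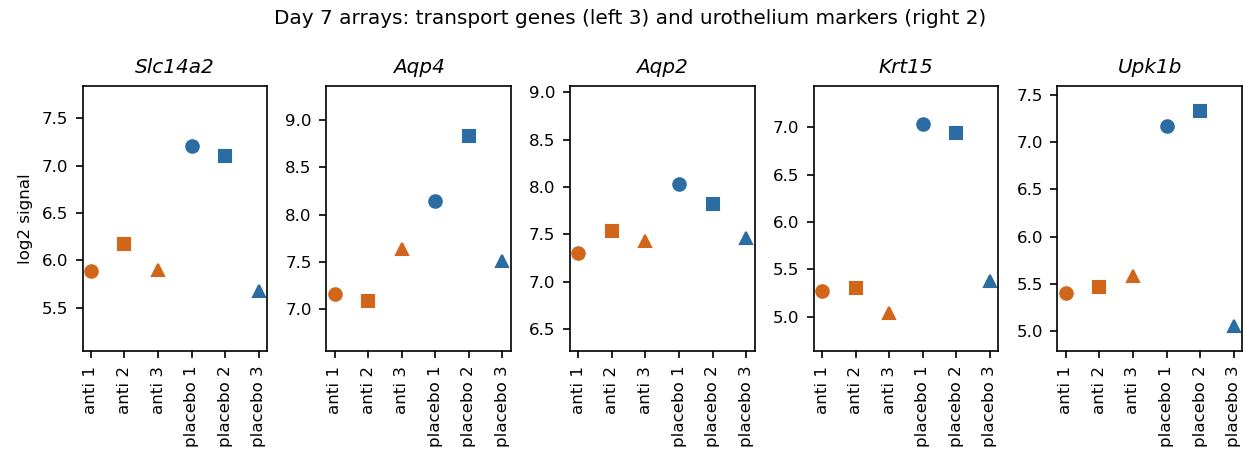
Log2 signal (y axis) on the 6 day 7 arrays (x axis, group and replicate) for the urea transporter gene Slc14a2, the channels Aqp4 and Aqp2 and the urothelium markers Krt15 and Upk1b, with all y axes spanning the same range of log2 units. Placebo replicates 1 and 2 are the highest arrays in all 5 panels, at 7.03 and 6.95 for Krt15 against 5.38 or less elsewhere.

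Principal cell markers outside the set showed part of the split. In group means at day 7, 5 of the 7 measured were lower under anti-miR-182 and 2 higher (median -0.050, 0 passed). The higher ones were Scnn1a (0.14) and Kcne1 (0.015), and the largest difference was that of Fxyd4 (-0.51). Fxyd4, which regulates the sodium pump in collecting duct, had 8.36, 8.72 and 8.77 under anti-miR-182 at day 7, against 10.05, 9.34 and 7.99 under placebo. The mean of 7 measured principal cell markers, of 8 listed, ran from 7.31 to 7.41 under anti-miR-182, against 7.69, 7.55 and 7.23 in placebo replicates 1, 2 and 3. Macrophage markers were lower under anti-miR-182 in 6 of 6 group means at day 7 (median -0.41, 0 passed). Their mean over 6 genes ran from 6.75 to 6.88 under anti-miR-182, against 6.76, 8.12 and 7.08 in placebo replicates 1, 2 and 3. Proximal tubule markers lay higher in 11 of 12 treated group means at day 7 (median 0.30, 0 passed), with means over the list of 10.56, 10.43 and 9.61 under anti-miR-182 against 9.98, 10.01 and 9.84 under placebo. The part of these cell markers in the differences was not tested beyond the values given.

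At day 2 none of the 9 members reached an unadjusted p of 0.05, against 6.61% of all genes, and limma called 0 of 18166 (0% called), with 1201 at an unadjusted p under 0.05. The median difference of the members was -0.039, against 0.033 for all genes. Collecting duct genes were close: Aqp2 differed by 0.058 ± 0.21, Aqp3 by 0.095 ± 0.20, Aqp4 by -0.056 ± 0.31, Avpr2 by 0.23 ± 0.21 and Slc14a2 by 0.12 ± 0.29 (SE). Their 95% intervals were wide, from -0.72 to 0.61 for Aqp4, and adjusted p-values ran from 0.861 to 0.983 in limma. The treated and placebo arrays separated completely in 0 of the 9 members, against 12.3% of all genes.

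What stood out at day 2 was the spread within the treated group in Aqp6, Aqp7 and Aqp11. Aqp6 had 9.45, 8.71 and 7.55 under anti-miR-182, against 9.18, 8.56 and 8.31 under placebo. Treated replicate 1 was the highest and treated replicate 3 the lowest of the 6 arrays. Aqp11 ran the other way, with 7.31, 8.97 and 9.03 under anti-miR-182, against 8.05, 8.97 and 8.56 under placebo. Aqp7 had 9.48, 10.32 and 10.77 under anti-miR-182, against 10.14, 10.29 and 10.26 under placebo. In both proximal genes treated replicate 1 was the lowest array and treated replicate 3 the highest.

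The SD of Aqp7 at day 2 was therefore 0.65 under anti-miR-182 and 0.081 under placebo, and that of Aqp6 0.96 and 0.45 (n = 3 each). Treated replicate 1 also had the highest mean of 8 intercalated cell markers, 8.9995 against 8.48 in both other treated animals and 8.26 to 8.52 under placebo, and the lowest mean of 12 proximal tubule markers, 10.29 against 10.86 and 10.88 in the other treated animals and 10.64 to 10.79 under placebo. This was not particular to these lists. The same array was the highest of day 2 in principal cell markers (8.21 against 7.87 or less) and endothelium markers (8.22 against 7.85 or less). It was also the highest in red blood cell markers (7.05 against 6.82 or less) and the lowest in podocyte markers (7.03 against 7.09 or more). Treated replicate 3 had the lowest mean of 10 tubular injury markers, 7.78, while the other treated animals had 8.53 and 8.61 and the placebo animals 8.60 to 8.76. The part of these in the spread was not tested. Without treated replicate 1 the differences were -0.56 for Aqp6, 0.31 for Aqp7 and 0.47 for Aqp11, and without treated replicate 3 they were 0.39, -0.33 and -0.39.

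Whether the treatment difference itself changed between days was tested as an interaction, day 7 minus day 2. It was lower at day 7 for 5 collecting duct genes: -0.41 ± 0.30 for Aqp2, -0.54 ± 0.28 for Aqp3, -0.81 ± 0.44 for Aqp4, -0.69 ± 0.29 for Avpr2 and -0.80 ± 0.41 for Slc14a2 (SE). Avpr2 alone of the 9 members had an unadjusted p under 0.05 (0.0316), against 3.92% of all genes, and its adjusted p was 0.999 in limma, which called 0 of 18166 genes (0% called). That count of 1 was 4 without placebo replicate 3 of day 7 (Aqp3, Aqp4, Avpr2 and Slc14a2). It was 2 without treated replicate 2 of day 7 or without treated replicate 3 or placebo replicate 2 of day 2, and without treated replicate 1 of day 2 it was 1 with Aqp4 in place of Avpr2. It was 0 without treated replicate 1 or 3 or placebo replicate 1 or 2 of day 7, and without treated replicate 2 or placebo replicate 3 of day 2. Over both days together 0 of the 9 members passed in limma, against 0.0055% of all genes, and 0 of 9 had an unadjusted p under 0.05, against 5.27% of all genes. That count was 3 without placebo replicate 3 of day 7 (Aqp3, Aqp4 and Slc14a2), and 1 (Aqp4) without treated replicate 3 of day 7, without treated replicate 3 or placebo replicate 1 of day 2, or with array weights. The largest mean difference was that of Aqp4, -0.46 ± 0.22 (SE), with an adjusted p of 0.888.

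Day 7 was also set against day 2. The median gene was 0.18 lower at day 7 in placebo kidneys and 0.21 lower under anti-miR-182 (log2 differences of -0.179 and -0.205), and the arrays of each day may have been normalized apart, so day and normalization cannot be told apart. In placebo kidneys the proximal channel genes fell and Slc14a2 rose. Limma called 4 of the 9 members (3 lower, 1 higher), against 28% of all genes (23.7% lower, 4.22% higher). The placebo arrays of day 7 serve here and in the treatment comparison at day 7, so the results of both share them.

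Aqp11 had 7.42, 7.45 and 7.44 in placebo kidneys at day 7, against 8.05, 8.97 and 8.56 at day 2. All day 7 arrays lay below all day 2 arrays, and the day 7 animals were nearly alike. The difference was -1.09 ± 0.35 (SE; adjusted p = 0.0347 in limma). Aqp7 had 9.48, 9.35 and 9.52 at day 7, against 10.14, 10.29 and 10.26 at day 2, again with no overlap and a difference of -0.78 ± 0.24 (adjusted p = 0.026 in limma). Aqp1 had 8.04, 7.73 and 7.63 at day 7, against 8.41, 8.29 and 8.11 at day 2, a difference of -0.47 ± 0.13 (adjusted p = 0.0161 in limma). These 3 genes were the members whose placebo groups did not overlap, where 40% of all genes were fully lower.

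Slc14a2 was the member that rose in placebo kidneys, with 7.20, 7.10 and 5.68 at day 7, against 5.94, 5.72 and 5.68 at day 2 (0.88 ± 0.29, SE; adjusted p = 0.038 in limma). Placebo replicates 1 and 2 of day 7 were above all day 2 arrays, and replicate 3 was at the level of day 2. The urothelium marker Krt15 passed in the same comparison (1.29 ± 0.31, adjusted p = 0.00888 in limma), as did Upk3b (0.47 ± 0.13), whereas the keratin Krt14 of the same list fell (-0.62 ± 0.15, adjusted p = 0.00817 in limma). Aqp4 (0.75 ± 0.31), Aqp2 (0.20 ± 0.21), Avpr2 (0.20 ± 0.21), Aqp3 (-0.069 ± 0.20) and Aqp6 (-0.62 ± 0.39) did not pass. Under 2 of the 22 alternatives tried for this comparison Aqp4 did pass (lowest adjusted p = 0.0246 in limma).

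Under anti-miR-182, 8 of the 9 members were lower at day 7 than at day 2, as were 76.4% of all genes, with a median of -0.50 against -0.21 for all genes. Limma called 1 of the 9 (Aqp3), against 27.5% of all genes. Aqp3 had 6.73, 7.17 and 6.73 at day 7, against 7.35, 7.70 and 7.41 at day 2, with no overlap between the days (35% of all genes were fully lower) and a difference of -0.61 ± 0.20 (SE; adjusted p = 0.0371 in limma). Aqp1 had 7.93, 7.97 and 7.74 at day 7, against 8.17, 8.20 and 8.30 at day 2, also without overlap, and its difference of -0.34 ± 0.13 had an adjusted p of 0.0598. Aqp11 (-0.97 ± 0.35) and Aqp7 (-0.63 ± 0.24) had adjusted p-values of 0.0552 and 0.0599. Their day 2 groups held treated replicate 1, which was at day 7 levels, and without it limma called both (-1.53 and -0.98). Whether treated and placebo kidneys differed in these changes is the interaction given above, in which 0 members passed.

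Most calls over time were lost when the shift of the median gene was removed. With each array centred on its median, limma called Slc14a2 of the 4 members in placebo (1.03) and 0 members under anti-miR-182. The share of all genes called fell too, from 28% to 17.8% in placebo and from 27.5% to 13.7% under anti-miR-182. Aqp11 was then -0.94 (adjusted p = 0.0927), Aqp7 -0.63 (0.0988) and Aqp1 -0.32 (0.11) in placebo, and Aqp3 was -0.43 (0.183) under anti-miR-182. In the placebo comparison the count of called members also changed with single arrays: it was 0 without day 2 replicate 2, and 1 without day 2 replicate 1 or 3 or day 7 replicate 1 or 2. In these settings 17.6% to 22% of all genes were called. Under anti-miR-182 the count of called members was 0 without day 2 replicate 2 or day 7 replicate 1 or 3, where 16.9% to 17.8% of all genes were called. It was 2 without day 2 replicate 3 (Aqp6 and Avpr2), without day 7 replicate 2 (Aqp3 and Avpr2) or without placebo replicate 1 of day 7 (Aqp1 and Aqp3), and 3 without day 2 replicate 1. In these settings 22.9% to 27.9% of all genes were called.

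**Figure D4:**
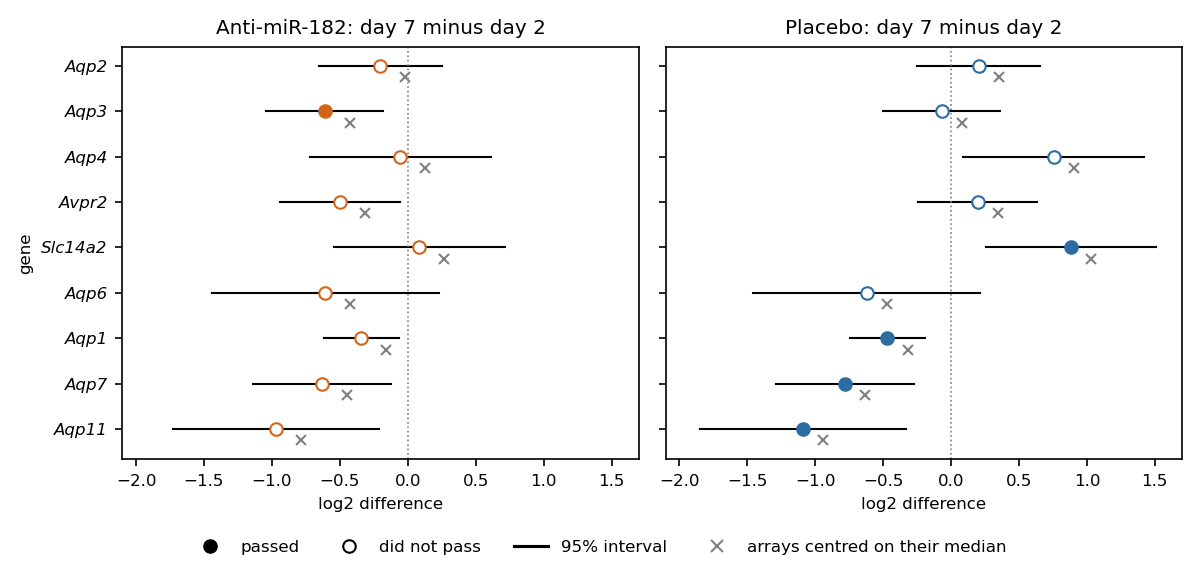
Log2 difference, day 7 minus day 2 (x axis), for each gene (y axis) under anti-miR-182 on the left and in placebo on the right, with 95% intervals, filled points for genes past the adjusted threshold and crosses for the value after centring each array on its median. Aqp1, Aqp7 and Aqp11 lie below 0 in both panels, and Slc14a2 lies at 0.88 in placebo.

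Proximal tubule genes outside the set were also lower at day 7. For this and the lists that follow, the share of all genes was 72% lower and 23.7% lower and past the threshold in placebo, and 76.4% lower and 24.9% lower and past the threshold under anti-miR-182. For genes that rose, 4.22% of all genes were higher and past the threshold in placebo. Under anti-miR-182, 5002 of 18166 genes passed in either direction (27.5%), and 4515 of these were lower. The share that was higher and past the threshold there is below the 4.87% that were higher at an unadjusted p under 0.05. In placebo kidneys 12 of 12 proximal markers were lower and 6 passed, with a median of -0.54 against -0.18 for all genes. Examples are the organic anion transporters Slc22a6 (-1.65 ± 0.29) and Slc22a8 (-1.57 ± 0.42) and the dicarboxylate transporter Slc13a3 (-1.45 ± 0.27, SE). Under anti-miR-182, 11 of 12 were lower and 3 passed. Aqp1 also belongs to vessel and red cell membranes and Aqp7 to fat cells. Of 4 measured red blood cell markers, of 8 listed, 0 passed in placebo and 1 fell under anti-miR-182, the anion exchanger Slc4a1, which the intercalated cell list also holds and counts. Of 5 measured endothelium markers, of 8 listed, 1 rose in placebo and 1 fell under anti-miR-182. Of 8 fat cell markers, 1 rose in each arm, Fabp4 (0.90 ± 0.30 in placebo), while 5 of the 8 were lower in placebo and 4 of the 8 under anti-miR-182, with medians of -0.042 and -0.030. Over time, beside 23.7% of all genes in placebo and 24.9% under anti-miR-182, 3 of 7 principal cell markers fell in placebo and 3 under anti-miR-182, and of 8 measured intercalated cell markers 5 fell in placebo and 6 under anti-miR-182. Macrophage markers rose in 3 of 6 in placebo and 2 of 6 under anti-miR-182. The part of these changes in those of the members was not tested.

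The signalling that acts on Aqp2 was followed in 4 further lists. For the treatment at day 7 and at day 2, limma called 0 of the 19 measured receptor and cyclic AMP genes (20 listed), 0 of 9 collecting duct transcription factors, 0 of 12 measured trafficking genes (14 listed) and 0 of 4 measured tonicity genes (6 listed). At an unadjusted p under 0.05 these held the regulatory subunits of protein kinase A Prkar2b (-0.53 ± 0.19) and Prkar2a (-0.25 ± 0.11, SE), both at day 2. At that day 6.61% of all genes met the same threshold, so this is not read as a result about the lists. Over time 12 of 12 trafficking genes were lower in placebo and 7 passed, with a median of -0.48 against -0.18 for all genes, of which 72% were lower and 23.7% fell. Under anti-miR-182, 12 of 12 were lower and 6 passed, with a median of -0.35 against -0.21 for all genes, of which 76.4% were lower and 24.9% fell. The vesicle fusion gene Vamp3 fell by 1.07 ± 0.14 in placebo and by 0.88 ± 0.14 under anti-miR-182, and Rab7a, a GTPase of late endosomes, fell by 0.55 ± 0.11 in placebo and by 0.48 ± 0.11 under anti-miR-182 (SE).

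Of the 19 receptor and cyclic AMP genes 3 fell in placebo, where 23.7% of all genes did, and 5 under anti-miR-182, where 24.9% did. Its medians were -0.20 in placebo and -0.17 under anti-miR-182, beside -0.18 and -0.21 for all genes. Among those that fell was the catalytic subunit of protein kinase A Prkacb (-0.58 ± 0.15 in placebo and -0.55 ± 0.15 under anti-miR-182). Of the transcription factors 2 fell in placebo, Gata2 (-0.52 ± 0.14) and Tfcp2l1 (-0.41 ± 0.14), and 1 under anti-miR-182, Tfcp2l1 (-0.51 ± 0.14, SE). Of the tonicity genes Akr1b1, the aldose reductase that makes the osmolyte sorbitol, rose in placebo (0.59 ± 0.17), while Hspa4l (-0.74 ± 0.12) and the inositol transporter Slc5a3 (-0.73 ± 0.23) fell. Akr1b1 had 8.004, 8.24 and 8.63 under anti-miR-182 at day 7, against 8.84, 8.74 and 8.26 under placebo, so that placebo replicates 1 and 2 were again the highest. The tonicity list as a whole did not share this. Its mean over the 4 measured genes was 7.998, 8.13 and 8.49 under anti-miR-182 at day 7, against 8.37, 8.15 and 8.12 under placebo. In group means 2 of the 4 were higher under anti-miR-182 and 2 lower. Of the other aquaporins and the second urea transporter Slc14a1, which carries urea in descending vasa recta, 0 of 5 passed for the treatment. Slc14a1 had 6.49, 6.82 and 7.13 under anti-miR-182 at day 7, against 8.14, 7.26 and 6.09 under placebo. Aqp9, a glycerol channel of leukocytes and liver, rose with time in placebo (0.77 ± 0.15) and under anti-miR-182 (0.44 ± 0.15, SE).

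The members fell into groups by how they varied between animals. Pearson's r was taken over the 12 arrays after the mean of each day was removed, and is given as a description, since arrays share group differences and tissue composition. Aqp2 and Avpr2 had r = 0.78, Avpr2 and Slc14a2 0.74, Aqp3 and Slc14a2 0.72 and Aqp2 and Aqp3 0.68. Aqp7 and Aqp11, both proximal, had r = 0.86. Aqp6 varied against them, with r = -0.74 to Aqp7 and -0.66 to Aqp11, which was -0.16 and -0.032 over the day 7 arrays and -0.90 and -0.79 over the day 2 arrays, and Aqp1 had no r above 0.34 with any member.

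These relations were not the same on both days. Aqp2 and Slc14a2 had r = 0.94 over the 6 day 7 arrays and 0.0048 over the 6 day 2 arrays, and Aqp4 and Slc14a2 had 0.80 and -0.62. Aqp3 and Slc14a2 had 0.87 at day 7 and -0.67 at day 2, and Aqp3 and Avpr2 had 0.90 and 0.060. Aqp2 and Avpr2 had 0.89 at day 7 and 0.70 at day 2. Neighbours in the genome did not have to vary together. In RefSeq's order Aqp7 and Aqp3 are next to each other on rat chromosome 5 with 0 protein-coding genes between them, and had r = 0.09. Aqp2 and Aqp6 lie on chromosome 7 with Aqp5 between them, and had r = 0.54.

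**Figure D5:**
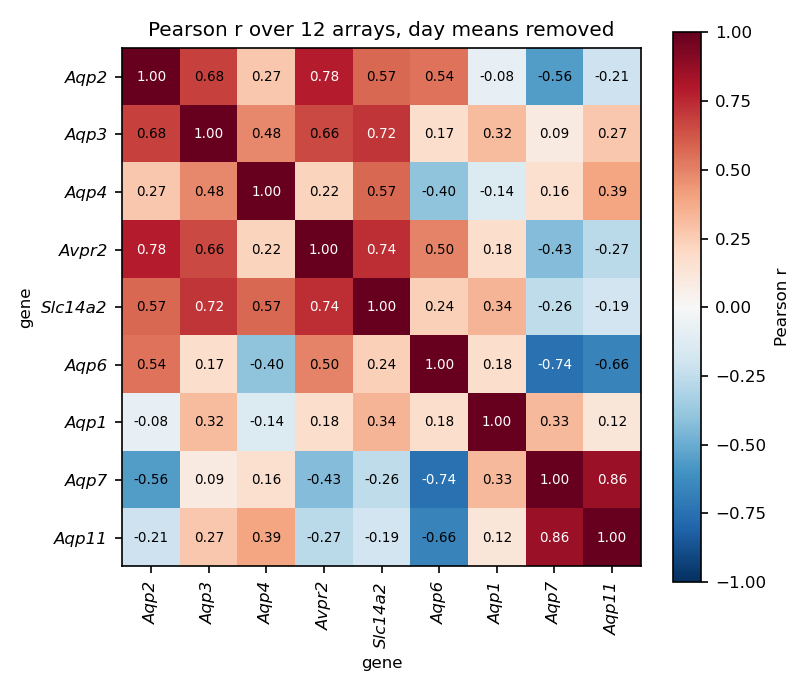
Pearson r between the 9 genes (both axes) over the 12 arrays after subtraction of each day's mean, with red for positive and blue for negative values. The block of Aqp2, Aqp3, Avpr2 and Slc14a2 holds values of 0.57 to 0.78, and Aqp7 with Aqp11 reaches 0.86.

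Among all genes, the 5 most like Aqp2 by this measure were Mfsd4a (r = 0.90), Gad2, which encodes a GABA-synthesising enzyme (0.88), Nudt4, a phosphohydrolase gene (0.87), the nuclear receptor coactivator Ncoa3 (0.87) and the olfactory receptor gene Or9i14 (0.87). Mfsd4a had 7.38, 7.45 and 7.56 under anti-miR-182 at day 7, against 8.17, 7.69 and 7.67 under placebo. The 5 most like Slc14a2 were Lypd2 (0.93), Upk1b (0.92), Krt15 (0.92), Pof1b (0.88) and Nipal1 (0.88). Of the genes named, Gad2 (3.79 to 4.41), Or9i14 (3.77 to 4.57) and Pof1b (3.74 to 5.11) were dim on all 12 arrays. Their signals stayed below the lowest array median of 5.84, so their likeness does not show that they are expressed in kidney. Upk1b and Krt15 had r = 0.98 and 0.96 with Slc14a2 over the day 7 arrays and 0.12 and 0.14 over the day 2 arrays. The day 2 arrays held no animal with high Krt15, whose signals there ran from 5.06 to 5.44.

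Promoters are shown for the vasopressin-regulated channel Aqp2 and for Aqp4 and Slc14a2, the genes with the lowest day 7 differences. The RefSeq table of the GRCr8 build held promoters of 8 of the 9 members, from 250 bases before the start to 50 after it, and where it held 2 starts (Aqp4 and Slc14a2) the one farthest upstream was taken. The capitals mark matches on either strand to TGACG, a half-site of the cyclic AMP response element, AGATAA, bound by GATA factors, and TGGAAA, the core read by NFAT factors including the tonicity factor Nfat5. The matches did not overlap.
Aqp2, chr7:132590036-132590335, plus strand: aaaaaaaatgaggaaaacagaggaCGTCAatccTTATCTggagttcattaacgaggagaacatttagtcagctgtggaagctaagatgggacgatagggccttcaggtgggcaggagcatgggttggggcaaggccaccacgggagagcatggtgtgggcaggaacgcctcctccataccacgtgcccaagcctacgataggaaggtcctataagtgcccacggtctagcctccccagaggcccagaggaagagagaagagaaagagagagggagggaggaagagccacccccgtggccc
Aqp4, chr18:6798793-6799092, minus strand: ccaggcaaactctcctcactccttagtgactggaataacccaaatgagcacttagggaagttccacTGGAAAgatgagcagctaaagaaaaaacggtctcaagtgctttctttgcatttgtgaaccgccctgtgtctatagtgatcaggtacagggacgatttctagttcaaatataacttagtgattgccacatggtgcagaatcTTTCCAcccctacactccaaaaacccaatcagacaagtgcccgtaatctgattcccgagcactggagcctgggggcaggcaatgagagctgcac
Slc14a2, chr18:74314497-74314796, minus strand: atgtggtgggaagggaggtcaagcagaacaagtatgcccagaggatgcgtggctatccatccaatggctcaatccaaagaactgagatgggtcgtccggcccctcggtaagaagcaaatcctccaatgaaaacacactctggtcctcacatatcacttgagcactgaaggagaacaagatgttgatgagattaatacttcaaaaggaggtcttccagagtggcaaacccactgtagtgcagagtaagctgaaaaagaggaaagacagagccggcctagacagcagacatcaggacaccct

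Aqp2 was the member with a TGACG match and the member with an AGATAA match, at 226 and 217 bases before its start, both read on the opposite strand. TGGAAA was found at 2 places in the Aqp4 window and at 1 in that of Aqp6. No match was found in the windows of Aqp1, Aqp3, Aqp11, Avpr2 and Slc14a2. Of all 33469 promoters in the table, 21.2% hold TGACG, 11.6% hold AGATAA and 22.7% hold TGGAAA on either strand. Of their possible readers on the arrays, Creb1, Gata2, Gata3 and Nfat5 were among the transcription factors of which 0 passed for the treatment. Over time Gata2 fell and passed in placebo (-0.52 ± 0.14, SE), and the other readers named did not pass.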

How the data were processed

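RNA of rat kidney was measured on 12 arrays, 1 per animal, in 4 groups of 3. Total RNA (200 ng) was extracted with Trizol and made into biotin-labelled target, per the labels' protocols. RMA is named, with no version, in the submitters' processing notes, and the deposited values are log2 signals per array row, used as the authors gave them. The 190 rows without day 2 values were left out. Groups came from the sample titles. One label on all samples speaks of a zero-hour biopsy, against the titles. Symbols came from the platform annotation (18511 rows with 1 symbol, 575 with several, 17599 not listed). For a gene with several rows, the row with the highest mean was tested, and each member had 1 row.

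A linear model with a mean for each of the 4 groups was fitted to 18166 genes (limma 3.58.1, eBayes, R 4.3.3), with 6 comparisons, each adjusted by Benjamini-Hochberg over all genes. The 9 members and all gene lists were chosen with earlier results of these data known. The text names all members, from each list up to 4 genes with the smallest unadjusted p, and the 5 genes most like Aqp2 and Slc14a2. Upk3a, Slc14a1, Aqp9 and Mfsd4a, single array values and the motifs were picked after values were seen. Of 145 list genes outside the members, 127 were measured (Trp63 as Tp63), and Gata3 and Slc4a1 each stand in 2 lists. For the treatment, every list had 0 genes past the threshold at both days. Lists not described in the report gave, over time, 0 thick and thin limb genes, 2 lower podocyte genes in each arm, and 1 lower injury gene in placebo and 1 lower and 2 higher under anti-miR-182. The fit was tested on simulated data. The number of arrays limits precision. The p-values set each difference against a spread between animals that the fit takes as shared by the 4 groups, also where the group SDs differ.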

Additional observations from a re-analysis of the deposited data

How the results depend on the processing

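The treatment comparisons called 0 members under every alternative tried at days 7 and 2, with 1 exception: without 1 placebo array of day 7 (replicate 3) limma called 1, Slc14a2, so leaving out arrays gave 0 to 1. The 4 members at an unadjusted p under 0.05 at day 7 were 0 without placebo replicate 2, and 1 without placebo replicate 1 or treated replicate 1 or 3 of day 7, 2 with each day fitted alone, 0 without placebo replicates 1 and 2 together, and 3 to 5 otherwise. Over time in placebo (4 called) there were 2 with quantile normalization, 2 with the animal number as covariate, 1 with arrays centred on their median, 1 without both placebo arrays of day 7 that had high urothelium markers, and 0 to 4 with single arrays left out. Under anti-miR-182 (1 called) there were 4 with array weights, 0 with quantile normalization, median centring or the animal number, 2 without those 2 placebo arrays, and 0 to 3 with single arrays left out. The share of all genes called changed as well. In placebo it was 16% with quantile normalization, 19.2% with the animal number and 17.8% with median centring, against 28%. Under anti-miR-182 it was 14.8%, 18.5% and 13.7% in these settings and 31.6% with array weights, against 27.5%. The counts could hold other members than the main fit: Aqp4 passed over time in placebo under 2 of 22 alternatives. The animal number was split at 90. All day 2 animals were numbered above it, and at day 7 only 1 animal per group was, so this covariate was largely tied to day.

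Signs also turned. Array weights gave 0.029 for Aqp6 at day 2, -1.63e-05 for Aqp11 at day 7 and -0.24 for the interaction of Aqp6, for which quantile normalization gave -0.039. Over time Aqp3 in placebo was 0.17, 0.080 and 0.10, and Aqp4 under anti-miR-182 was 0.18, 0.13 and 0.11, with quantile normalization, median centring and the animal number. Without both placebo arrays, Slc14a2 was 0.31 at day 7, 0.22 over both days, 0.18 in the interaction and -0.099 over time in placebo; over both days Aqp2 was 0.011, Aqp3 0.037 and Avpr2 0.054, and over time in placebo Aqp2 was -0.11 and Avpr2 -0.14.

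With single arrays left out, differences at day 2 ran from -0.12 to 0.024 for Aqp1, -0.11 to 0.32 for Aqp2, -0.011 to 0.16 for Aqp3, -0.31 to 0.18 for Aqp4, -0.56 to 0.39 for Aqp6, -0.33 to 0.31 for Aqp7 and -0.39 to 0.47 for Aqp11. At day 7 they ran from -0.0027 to 0.20 for Aqp1, -0.35 to 0.19 for Aqp6 and -0.12 to 0.12 for Aqp11. Over both days they ran from -0.023 to 0.080 for Aqp1, -0.33 to 0.15 for Aqp6, -0.11 to 0.21 for Aqp7 and -0.18 to 0.25 for Aqp11, and in the interaction from -0.50 to 0.46 for Aqp6, -0.20 to 0.44 for Aqp7 and -0.44 to 0.42 for Aqp11. Over time they ran from -0.32 to 0.14 for Aqp3 in placebo, and under anti-miR-182 from -0.29 to 0.20 for Aqp4 and -0.013 to 0.20 for Slc14a2. The cause was not tested. Leaving out the dimmest 50% of genes removes Slc14a2. No paired analysis was possible because the animals have no shared replicate numbers.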
